A study of Homo sapiens with 12 samples.

Results

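Quinacrine (QC) is an acridine drug long used against malaria that binds DNA, collects in lysosomes and has been described as an activator of p53 and an inhibitor of NF-kB. Its effect on RNA was measured in 3 drug-resistant cell lines labelled as ovarian cancer. The lines are HeyA8-MDR, then SK-OV-3-TR, then C13, and where values of the 3 lines stand side by side they are in this order. The 6 libraries described here, of 12 in the series, were chosen by their labels as the resistant ones: each line gave 1 library of cells treated with QC at 8 µM for 6 h and 1 of cells given buffer alone (vehicle). Per the study's methods HeyA8-MDR is carboplatin-resistant, SK-OV-3-TR is taxol-resistant and C13, derived from OV2008, is cisplatin-resistant, and each is the isogenic partner of a sensitive line (HeyA8, SK-OV-3 and OV2008) that was treated in the same way. The question was which genes and processes moved in all 3 lines and in which line they moved most.

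With 1 library per line and treatment, the 3 lines were the replicates, and no line had an error of its own beyond the counting error of its reads. A p-value here therefore sets the mean QC effect against the spread between lines, estimated with information shared across genes. A gene's SE can thus be larger or smaller than the spread of its own 3 ratios. The 6 libraries held between 17782556 and 29884628 reads counted on genes. The labels call all lines ovarian cancer, and their markers differed widely. PAX8, a transcription factor of Mullerian carcinomas, was at 210 to 295 CPM (counts scaled to a library of equal size) in HeyA8-MDR and 455 to 552 CPM in SK-OV-3-TR, but at 19.7 to 27.7 CPM in C13. Of the other Mullerian genes listed, SOX17 and WT1 were also lowest in C13. ESR1, MUC16 and FOLR1 went the other way and were highest there. ESR1 reached 26.6 CPM in C13 and at most 0.476 CPM in the other resistant lines. C13 also held the squamous markers TP63, at 109 and 155 CPM, and KRT5, at 3075 and 2856 CPM in vehicle and QC. HeyA8-MDR was at or near 0 for EPCAM, with 0.0472 CPM in vehicle and 0 in QC, and held the mesenchymal filament gene VIM at 9412 and 9830 CPM. Of the other epithelial genes listed, KRT19, CDH1 and CLDN4 were at 1.27 CPM or less there. KRT8, at 910 and 870 CPM, and KRT18, at 517 and 512 CPM, went the other way. The endothelial marker CDH5 was at 134 and 145 CPM in this line, while VWF and KDR were at 1.51 CPM or less. The summed level of 4 leukocyte markers reached at most 2.79 CPM in the 6 libraries. ABCB1, the drug efflux pump, was at 48.9 and 45.0 CPM in HeyA8-MDR, at 384 and 156 CPM in SK-OV-3-TR and at 0.602 and 0.506 CPM in C13 (vehicle and QC). Over the 374 genes that were higher in SK-OV-3-TR than in SK-OV-3 without drug, the SK-OV-3-TR QC library was, by the median gene, 19.3% of the way towards SK-OV-3, against -0.07% over the 194 genes that were lower. The same measure was 24.8% over 35 such genes in HeyA8-MDR and -7.97% over 47 in C13. Over the genes lower than in the partner it was 2.22% (75 genes) in HeyA8-MDR and 0.0% (56 genes) in C13. The genes of each pair were chosen by its vehicle libraries. The part of such a shift in the results was not tested. Among the sensitive lines, used only for comparison, the HeyA8 QC library was 39.5% (35 genes) and 52.4% (75 genes) of the way to HeyA8-MDR. The SK-OV-3 QC library was 0.0% (374 genes) and 6.27% (194 genes) of the way to SK-OV-3-TR. The OV2008 QC library was 34.7% of the way to C13 over the 56 genes higher in OV2008 and 0.78% over the 47 lower.

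Across 16217 genes that passed a filter on low counts, no gene passed the test over the 3 lines after adjustment. edgeR's quasi-likelihood test with a term for the cell line called 0 genes (0.0%) at a Benjamini-Hochberg adjusted p under 0.05, and the smallest adjusted p was 0.242. At an unadjusted p under 0.05, the threshold named in the study's methods, it called 1251 genes (7.71%), of which 715 (4.41%) were higher and 536 (3.31%) lower with QC. DESeq2 with the same term called 11 genes at an adjusted p under 0.05 and 1111 at an unadjusted p under 0.05. In the counts of gene lists below, "higher" and "lower" genes are those at an unadjusted edgeR p under 0.05, and all of them are above 0.05 once adjusted over all genes. The shares 4.41% and 3.31% are the background against which the counts in gene lists should be read. Counts with a line left out have their own background. Without HeyA8-MDR, 399 of 18639 genes were higher and 238 lower, and without SK-OV-3-TR, 884 and 477 of 16924. Without C13, they were 1168 and 666 of 17737. Under a GC and length correction, described below, 510 of 16217 genes were higher and 492 lower.

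The log2 ratio of QC over vehicle was above 0 in all 3 lines for 2147 genes (13.2%) and below 0 in all 3 for 2653 genes (16.4%). In single lines it was above 0 for 7714, 7871 and 7832 of the 16217 genes, the background for such counts in lists below. At least 1.5-fold above vehicle in every line were 112 genes (0.691%), 88 of them at an unadjusted p under 0.05, and at least 1.5-fold below it 119 genes (0.734%), 73 of them under that p. At 2-fold these were 16 (0.0987%) and 7 genes (0.0432%), chosen by their ratios. Most of them had few reads: 14 of the 16 and 6 of the 7 had fewer than 10 counts in some library, and 12 and 6 had fewer than 100 in every library. The counting interval (exact binomial, 95%, covering counting error only) excluded no change in all 3 lines for 11 of the 16 higher and 2 of the 7 lower genes. Just inside the 2-fold limit lay LASTR and DACT1, each with a smallest log2 ratio of 1.02, and PTGDS at -1.13 and AGAP5 at -1.10. Just outside it lay IL7R at 0.98 and DLX5 at -0.99.

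**Figure D1:**
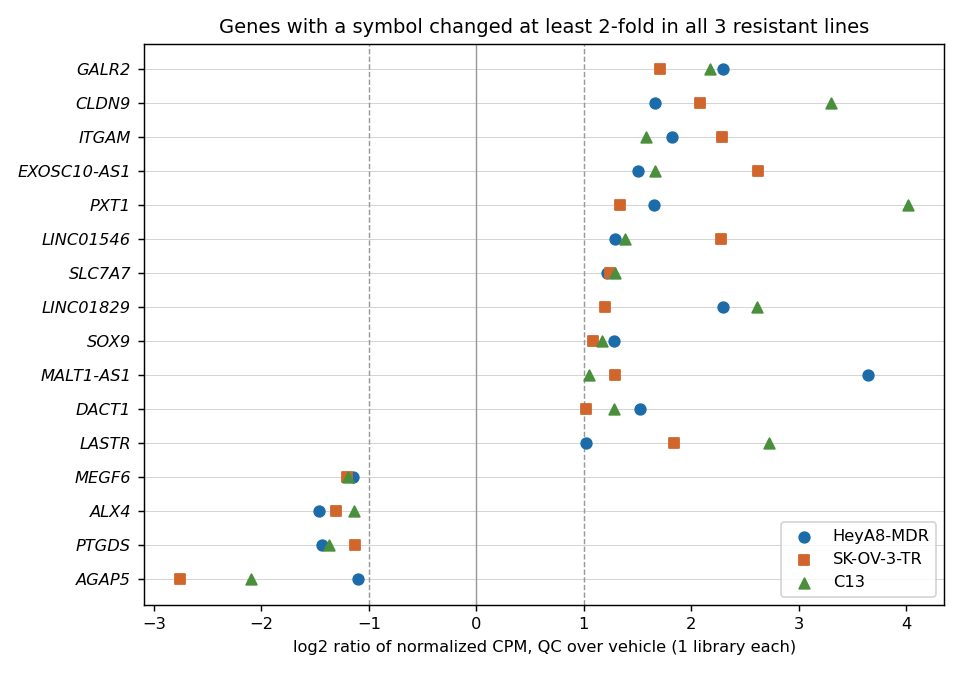
Log2 ratio of normalized CPM, QC over vehicle, in HeyA8-MDR (circles), SK-OV-3-TR (squares) and C13 (triangles) for the 16 genes with a symbol that changed at least 2-fold in every line; dashed lines mark 2-fold, and where a library had 0 counts the ratio depends on the prior count of 2. SOX9, SLC7A7 and MEGF6 have nearly the same ratio in each line, while PXT1 and CLDN9 are farthest right in C13 and MALT1-AS1 in HeyA8-MDR.

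SOX9, a transcription factor of progenitor and epithelial cell fate, had the smallest p of all genes. It stood at 37.4, 14.3 and 30.3 normalized CPM with vehicle and at 91.1, 30.4 and 68.4 with QC. Each QC library was above its own vehicle library, although the QC level of SK-OV-3-TR was below the vehicle level of HeyA8-MDR. The ratios were 2.43-fold (counting interval 2.23 to 2.66), 2.13-fold (1.88 to 2.41) and 2.26-fold (2.08 to 2.45), with a fitted log2 fold change of 1.18 (SE 0.20, edgeR adjusted p = 0.242). In the sensitive lines its log2 ratio was 1.79 in HeyA8 and 2.58 in OV2008 but -0.34 in SK-OV-3, where it was counted 6 and 4 times.

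LASTR, a long non-coding RNA described as a regulator of splicing, went from 11.5, 1.57 and 2.80 normalized CPM to 23.4, 5.83 and 19. Its log2 ratio was smallest in HeyA8-MDR (1.02), larger in SK-OV-3-TR (1.84) and largest in C13 (2.73), with a fitted change of 1.88 (SE 0.34, edgeR adjusted p = 0.264). CLDN9, a tight junction claudin, was counted 26, 0 and 30 times with vehicle and 75, 5 and 280 times with QC. In C13 that was 10.6-fold (counting interval 7.27 to 16) and in HeyA8-MDR 3.30-fold (2.08 to 5.36), whereas the 5 reads in SK-OV-3-TR leave its size unknown. SLC7A7, a subunit of a cationic amino acid transporter, had log2 ratios of 1.22, 1.24 and 1.29 from levels of at most 4.16 normalized CPM. The other genes of this group with a symbol were GALR2, a galanin receptor, ITGAM, an integrin of myeloid cells, DACT1, a regulator of Wnt signalling, PXT1 and 4 non-coding transcripts (EXOSC10-AS1, LINC01546, LINC01829 and MALT1-AS1), each with 10 or fewer counts in at least 1 library, and 4 of the 16 have no symbol. Under DESeq2, SOX9, LASTR and CLDN9 passed an adjusted p of 0.05.

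MEGF6, which encodes a secreted protein with EGF-like repeats, was the gene with most reads among those at least 2-fold lower in every line. Its level went from 18.2, 3.35 and 77.7 normalized CPM with vehicle to 8.19, 1.40 and 34 with QC. The log2 ratios of -1.15, -1.21 and -1.19 differed by less than their counting error. The fitted change was -1.20 (SE 0.23, edgeR adjusted p = 0.432; DESeq2 adjusted p = 0.0244). Its window of 250 bases before the start (RefSeq, GRCh38.p14, chr1:3611509-3611758, minus strand) is shown because the decrease was of like size in every line, with each GC box (GGGCGG on either strand) in capitals. It held 6 of them; 42.3% of 27305 promoters of the same length hold at least 1, and so do 66.7% of the 11560 promoters of the genes tested.
MEGF6: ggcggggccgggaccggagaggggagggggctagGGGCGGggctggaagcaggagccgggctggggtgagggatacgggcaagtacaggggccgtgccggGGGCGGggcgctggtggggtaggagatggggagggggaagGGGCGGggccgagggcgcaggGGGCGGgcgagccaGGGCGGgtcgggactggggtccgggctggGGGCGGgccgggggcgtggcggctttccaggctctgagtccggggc

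The other 3 lower genes of this group with a symbol had few reads, and 3 have no symbol. ALX4, a homeobox factor, was counted 28, 57 and 8 times with vehicle and 8, 12 and 2 times with QC. PTGDS, a prostaglandin D synthase, went from 12, 54 and 4 counts to 3, 13 and 0, and AGAP5 from 19, 28 and 18 to 7, 1 and 2. ALX4, PTGDS and AGAP5 were below vehicle in every pair, at levels where a few reads decide the ratio.

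The sensitive lines gave a check in libraries that the choice of these genes did not use. Of the 16 genes at least 2-fold higher in all resistant lines, 7 (43.8%) were above their vehicle level in all 3 sensitive lines, beside 15.6% of all genes tested. Of the 7 lower genes 1 (14.3%) was below it in all 3, beside 14.1%. At 1.5-fold the shares were 41 of 112 higher genes (36.6%), with 0 reversed in every sensitive line, and 26 of 119 lower genes (21.8%), with 12 reversed. These shares count the direction only, and 1 of the 16 was at least 2-fold higher in all 3 sensitive lines. CLDN9 was among those higher in every sensitive line, at log2 ratios of 4.67, 1.05 and 3.24, although it was counted only 0 and 2 times in SK-OV-3. GALR2 and LINC01546 were also among the 7, with 0 and 2 counts and 2 and 2 counts in SK-OV-3, where a few reads decide the direction. MEGF6 was not lower in SK-OV-3, where its ratio was 0.42.

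Since most genes at 2-fold were thinly counted, the change in all 3 lines was also listed for well counted genes, a choice made after the values were seen. With at least 50 counts in every library, a symbol and at least 1.5-fold in each line there were 35 genes, 19 higher and 16 lower. The higher ones included HIF1A, the oxygen-regulated transcription factor, which went from 76.0, 771 and 292 normalized CPM to 175, 1193 and 534. HIF1A and TMEM45A passed an adjusted p of 0.05 under DESeq2 (0.0482 for both). IDI1, an isomerase of sterol synthesis, had log2 ratios of 1.01, 0.68 and 0.72. RND3, a small GTPase that opposes contractility, had ratios of 0.67, 0.78 and 0.71, and RPS27L, a p53-responsive ribosomal protein paralogue, 0.69, 0.70 and 0.59. TMEM45A, a transmembrane protein, moved most in HeyA8-MDR (21.3 to 70.5 normalized CPM) and less in SK-OV-3-TR (6.04 to 11.8) and C13 (9.65 to 16.7). RESF1, DIS3 (the exosome nuclease), DYNLT3, PLAC8, NXT2, CTNNAL1, THAP10, LINC02535 and the histone genes H2AC11, H2BC12 and H4C9 were also in this set.

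The 16 lower genes of that set held several enzymes. OGG1, the glycosylase that removes oxidised guanine, went from 18.1, 9.78 and 28.6 normalized CPM to 8.67, 6.32 and 12.6. TOE1, a deadenylase that matures small nuclear RNAs, had log2 ratios of -0.68, -0.81 and -0.78. H6PD, the dehydrogenase that makes NADPH in the endoplasmic reticulum, went from 91.5, 201 and 23.9 to 43.7, 132 and 13.4. PYCR1, of proline synthesis, had log2 ratios of -0.64, -0.76 and -0.66, and MYEOV had ratios of -0.61, -0.64 and -0.63 from vehicle levels of 281, 121 and 225 normalized CPM. ALDH16A1, TMEM143, EXOG, C19orf44, MCM3AP-AS1, NUDT18, EEF2K, HDDC3, FBXL6 and ZNF581 were also in it. SEMA5A, a semaphorin, and RBM14, a coactivator found in paraspeckles, were below vehicle in every line but with few reads or a smaller ratio in SK-OV-3-TR: SEMA5A was at log2 ratios of -1.38, -2.01 and -0.71 and RBM14 at -1.37, -0.34 and -1.13. In this set the change was largest in HeyA8-MDR for 10 higher and 6 lower genes, in SK-OV-3-TR for 4 and 4, and C13 for 5 and 6.

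**Figure D2:**
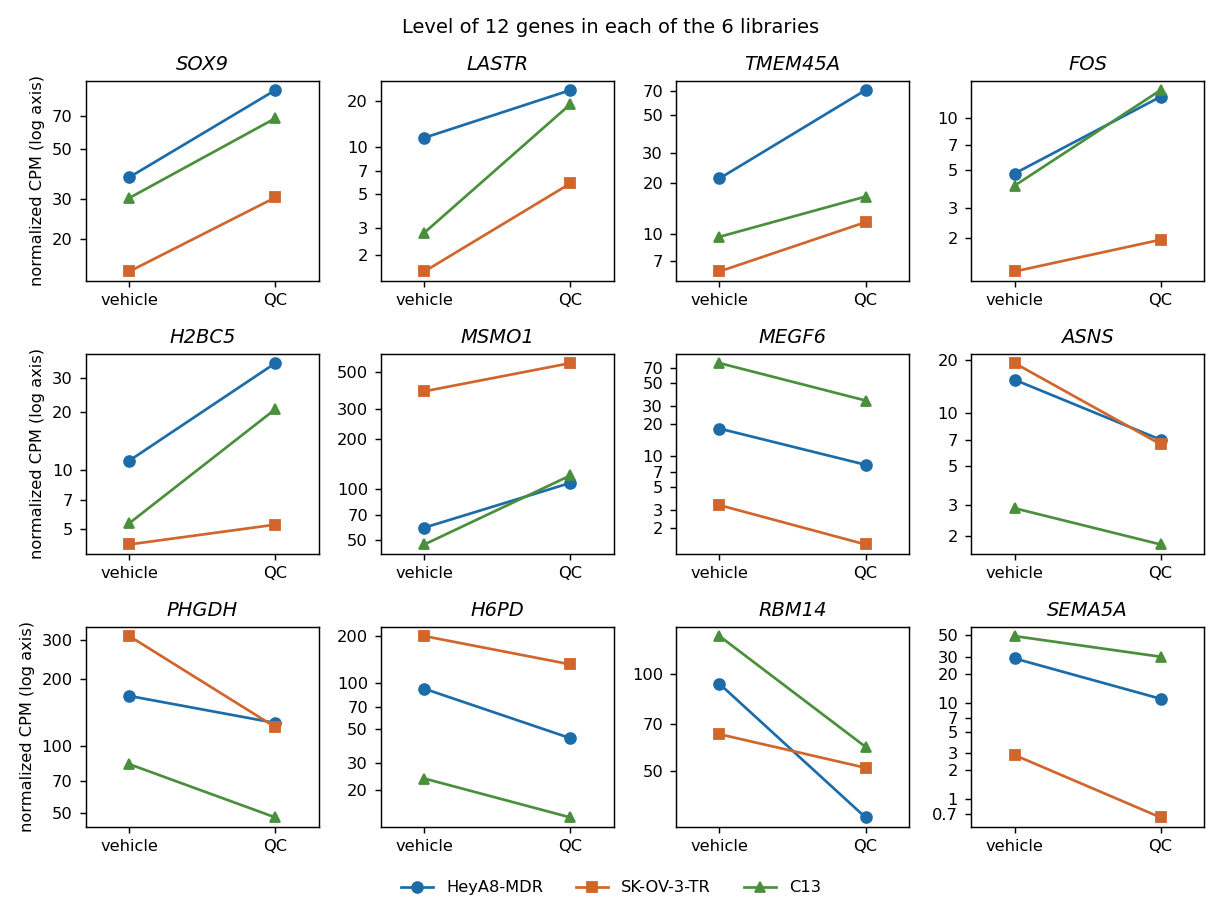
Normalized CPM (log axis) of 12 genes in the vehicle and QC library of each resistant line, with 1 library per point and a line joining the pair. SOX9, LASTR, TMEM45A, FOS, H2BC5 and MSMO1 slope upwards in every line, and MEGF6, ASNS, PHGDH, H6PD, RBM14 and SEMA5A downwards, with the steepest slope of PHGDH in SK-OV-3-TR.

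HeyA8-MDR moved most by the spread of its ratios and SK-OV-3-TR least. The SD of the log2 ratio over all genes was 0.731 in HeyA8-MDR, 0.649 in C13 and 0.561 in SK-OV-3-TR. In HeyA8-MDR 987 genes (6.09%) were at least 2-fold higher and 1349 (8.32%) lower. SK-OV-3-TR had 438 (2.7%) higher and 734 (4.53%) lower, and C13 had 1180 (7.28%) higher and 416 (2.57%) lower. C13 was thus the line with more 2-fold higher than lower genes, and at 4-fold it had 223 higher and 26 lower, against 100 and 204 in HeyA8-MDR and 56 and 92 in SK-OV-3-TR. A gene's largest change was in HeyA8-MDR for 6849 genes (42.2%), in C13 for 5319 (32.8%) and in SK-OV-3-TR for 4049 (25%). Among the 8692 genes with at least 100 counts in every library, 4.87%, 1.04% and 2.22% changed at least 2-fold in the 3 lines, with HeyA8-MDR again first and SK-OV-3-TR last. These orders rest on 1 pair of libraries per line, so how far a second pair of the same line would differ is unknown.

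The lines did not move in parallel. Across the 16217 genes the log2 ratios of HeyA8-MDR and SK-OV-3-TR had a Pearson r of 0.18, those of HeyA8-MDR and C13 0.12 and those of SK-OV-3-TR and C13 -0.03; genes are not independent replicates, and each line has its own vehicle library. Of the 2336, 1172 and 1596 genes that changed at least 2-fold in each line, 246, 222 and 282 changed at least 2-fold the opposite way in another line. The ratios also fell with transcript GC content in each line (Spearman correlations of -0.23, -0.22 and -0.14 across genes). Split into 5 equal groups by GC content, the group with the lowest GC had median log2 ratios of 0.30, 0.14 and 0.10 and that with the highest -0.15, -0.14 and -0.13. The higher genes at an unadjusted p under 0.05 had a median GC content of 41.7% and the lower genes of 57.0%, beside 49.5% over all. The part of GC content in single results was not tested beyond a correction, under which 1002 genes stayed or came under a p of 0.05 and 777 of the 1251 were shared.

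**Figure D3:**
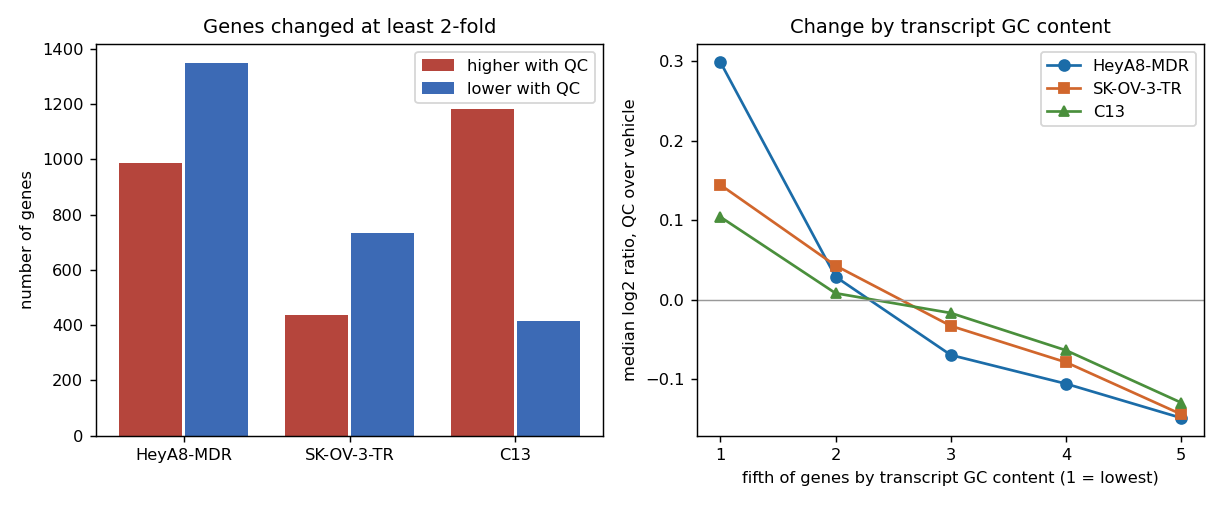
Left, number of genes changed at least 2-fold with QC in each resistant line (bars, 1 pair of libraries per line); right, median log2 ratio of QC over vehicle in 5 equal groups of genes by transcript GC content. C13 has 1180 higher and 416 lower genes, the reverse balance of HeyA8-MDR and SK-OV-3-TR, and all 3 lines slope downwards with GC content.

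Among gene lists, replication-dependent histones had the largest median change. These genes encode the core and linker histones that package newly copied DNA, and most of their transcripts end in a stem-loop and not in a poly(A) tail, while the labels name polyA RNA as the molecule sequenced. Of 22 tested of 63 listed, 12 (54.5%) were higher and 0 lower, and 13 (59.1%) were above vehicle in all 3 lines; over all genes these shares are 4.41%, 3.31% and 13.2%. The median fitted log2 change was 0.90, against -0.01 over all genes, with line medians of 0.74, 0.44 and 1.16. The change was largest in C13 for 14 of the 22. With at least 10 counts in every library, 14 of the histones remained and 11 of them were higher, at a median of 0.96. Over all genes that filter gave 668 higher of 12372. Near-identical histone genes share reads, so the split between single members is uncertain, and antisense or overlapping reads cannot be told apart where strand was not used.

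H2BC5 went from 11.2, 4.14 and 5.33 normalized CPM to 35.9, 5.24 and 20.7. Its log2 ratios of 1.67, 0.33 and 1.94 were large in HeyA8-MDR and C13 and small in SK-OV-3-TR (fitted 1.36, SE 0.32, edgeR adjusted p = 0.459). H2AC11 went from 3.16, 4.56 and 2.90 to 5.48, 9.07 and 17, so that the vehicle and QC levels did not overlap. H2BC12 had ratios of 1.0, 1.0 and 0.75 and H2AC6 of 0.94, 0.54 and 1.77. H4C8 was below vehicle in SK-OV-3-TR, with 22 and 7 counts there against 26 and 111 in HeyA8-MDR and 80 and 463 in C13. It was not alone: of the 22 histones, 17 were above vehicle in SK-OV-3-TR, 17 in HeyA8-MDR and 22 in C13. Without C13 the list kept a median of 0.75 with 6 higher genes, and under the GC and length correction 12 were higher.

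The promoters of these genes are shown because 12 of the 22 tested histones were higher. Each is the 250 bases before the start (RefSeq, GRCh38.p14), with TATA boxes (TATAAA) and CCAAT boxes (CCAAT), both strands searched, in capitals; a TATAAA match on both strands overlaps itself in TTTATAAA. H2BC5 lies at chr6:26157871-26158120 (plus strand), H2BC12 at chr6:27146859-27147108 (minus) and H2AC11 at chr6:27132793-27133042 (plus). Of the 22 histone promoters, 14 (63.6%) held TATAAA and 19 (86.4%) CCAAT, beside 11.1% and 33.0% of all promoters and 5.35% and 34.8% of those of the genes tested.
H2BC5: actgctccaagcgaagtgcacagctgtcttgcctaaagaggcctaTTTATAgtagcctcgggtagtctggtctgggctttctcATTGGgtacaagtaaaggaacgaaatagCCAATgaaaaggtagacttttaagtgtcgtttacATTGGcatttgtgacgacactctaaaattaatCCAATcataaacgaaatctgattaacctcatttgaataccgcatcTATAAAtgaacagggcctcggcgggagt
H2BC12: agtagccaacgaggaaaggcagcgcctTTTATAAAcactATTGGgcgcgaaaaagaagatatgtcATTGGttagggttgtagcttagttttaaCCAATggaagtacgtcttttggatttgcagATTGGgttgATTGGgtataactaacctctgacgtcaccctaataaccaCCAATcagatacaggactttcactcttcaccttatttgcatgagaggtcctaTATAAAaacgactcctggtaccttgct
H2AC11: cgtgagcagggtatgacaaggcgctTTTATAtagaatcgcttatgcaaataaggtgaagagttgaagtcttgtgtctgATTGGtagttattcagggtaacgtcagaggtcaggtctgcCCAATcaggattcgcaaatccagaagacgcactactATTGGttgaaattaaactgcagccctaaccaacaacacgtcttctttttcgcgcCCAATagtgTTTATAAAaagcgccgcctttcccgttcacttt

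ATF4 targets had the lowest median. ATF4 is the transcription factor of the integrated stress response that drives amino acid synthesis, import and tRNA charging. Of 39 tested, 0 were higher and 10 (25.6%) lower, and 15 (38.5%) were below vehicle in all 3 lines, beside 3.31% and 16.4% of all genes. The median fitted log2 change was -0.36, and line medians were -0.08, -0.70 and -0.33. The change was largest in SK-OV-3-TR for 21 genes, and 15 were at least 2-fold lower there, against 2 in HeyA8-MDR and 0 in C13. With that line left out the median was -0.18 with 4 lower and 2 higher genes, and without C13 15 were lower.

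ASNS, asparagine synthetase, stood at 15.5, 19.3 and 2.86 normalized CPM with vehicle and 7.05, 6.64 and 1.78 with QC. Each line was lower, most in SK-OV-3-TR, at 0.344-fold (counting interval 0.282 to 0.418), and least in C13, at 0.621-fold (0.426 to 0.897). The fitted log2 change was -1.14 (SE 0.30, edgeR adjusted p = 0.475). PHGDH, the first enzyme of serine synthesis, went from 168, 313 and 83.0 to 127, 122 and 47.8, with log2 ratios of -0.40, -1.36 and -0.79 and a fitted change of -0.85 (SE 0.23). MTHFD2, of mitochondrial folate metabolism, went from 202, 298 and 175 to 168, 123 and 108. The glutamine carrier SLC1A5 had ratios of -0.17, -1.68 and -0.55. SLC7A5, the leucine carrier, moved least in SK-OV-3-TR (-0.39) and most in C13 (-1.0), unlike ASNS and PHGDH. CBS, PSAT1, TRIB3, PYCR1 and AARS1, the alanyl-tRNA synthetase, were the remaining lower genes.

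Some ATF4 targets moved in SK-OV-3-TR and not in all lines. CHAC1, a glutathione-degrading enzyme, was counted 1812 times with vehicle and 86 times with QC in SK-OV-3-TR, but 92 and 98 times in HeyA8-MDR and 376 and 279 times in C13. Its log2 ratios were 0.28, -3.53 and -0.24 (fitted -1.10, SE 0.54, edgeR adjusted p = 0.655), and it was not under an unadjusted p of 0.05. SLC1A4, a serine and alanine carrier, had ratios of -0.05, -2.37 and 0.11 and SESN2, a stress-induced inhibitor of mTORC1, -0.16, -2.28 and 0.83. INHBE, an inhibin subunit that is not on the list, went from 322 to 30 counts in SK-OV-3-TR and was counted at most 15 times in the other lines' libraries.

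The 250 bases before ASNS (chr7:97872409-97872658, minus strand) and CHAC1 (chr15:40953221-40953470, plus strand) are shown because they moved in all 3 lines and in SK-OV-3-TR, respectively. Capitals mark TGATGNAA, the letters of the C/EBP-ATF response element, searched on both strands and chosen after the values were seen. It began 68 bases before the start in ASNS and 209 in CHAC1. Of 31 ATF4 targets matched to a promoter 3 (9.68%) held it, beside 3.19% of all promoters and 1.36% of those of the genes tested.
ASNS: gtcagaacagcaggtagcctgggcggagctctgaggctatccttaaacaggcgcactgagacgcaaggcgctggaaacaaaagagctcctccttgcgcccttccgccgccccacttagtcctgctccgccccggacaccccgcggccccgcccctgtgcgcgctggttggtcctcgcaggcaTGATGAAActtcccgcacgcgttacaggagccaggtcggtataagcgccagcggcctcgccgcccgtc
CHAC1: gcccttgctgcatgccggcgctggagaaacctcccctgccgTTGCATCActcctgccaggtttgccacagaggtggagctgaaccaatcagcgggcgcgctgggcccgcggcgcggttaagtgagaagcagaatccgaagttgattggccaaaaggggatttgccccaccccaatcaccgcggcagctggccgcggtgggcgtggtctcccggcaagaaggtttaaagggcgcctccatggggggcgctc

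**Figure D4:**
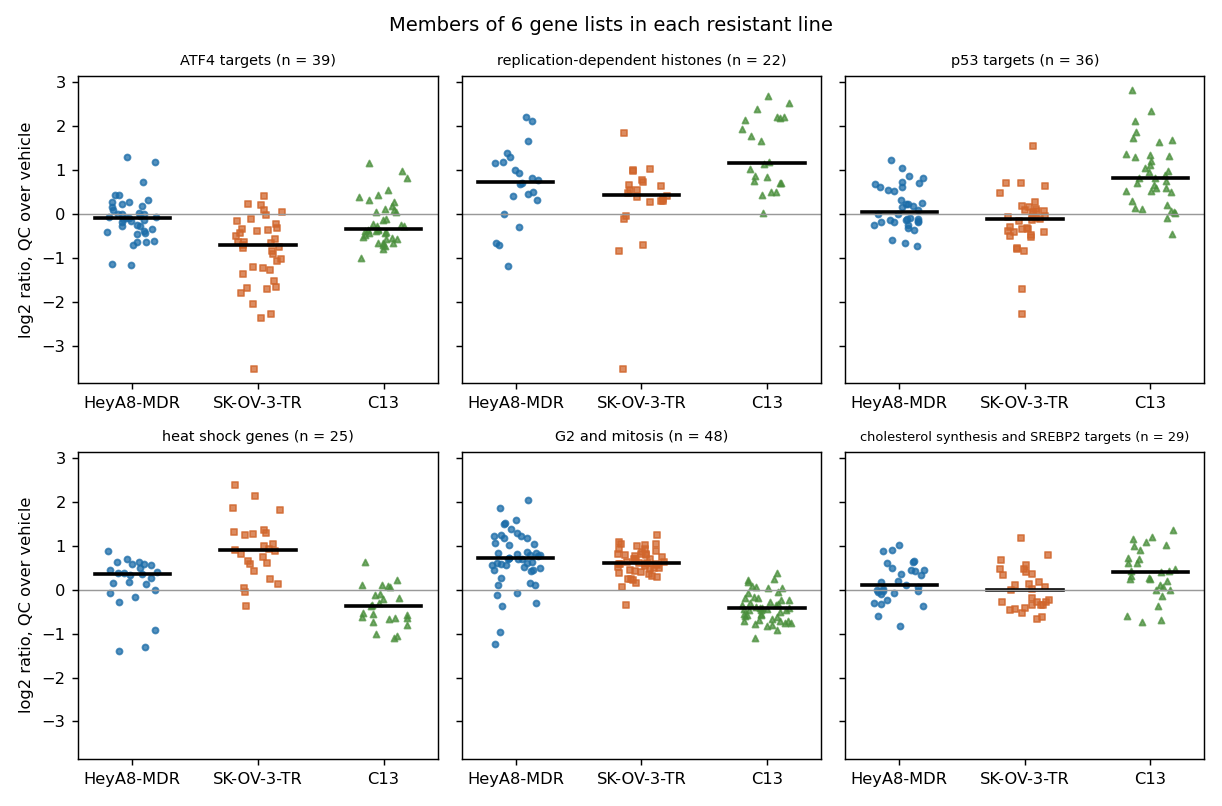
Log2 ratio of QC over vehicle for every tested member of 6 gene lists in each resistant line (points, 1 gene each) with the median (black bar). ATF4 targets sit lowest in SK-OV-3-TR, p53 targets and histones highest in C13, heat shock genes highest in SK-OV-3-TR, and G2 and mitosis genes are above 0 in HeyA8-MDR and SK-OV-3-TR and mostly below 0 in C13.

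Among the resistant lines, C13 stood apart for p53 targets, the genes that the p53 transcription factor switches on after DNA damage. Of 36 tested, 8 (22.2%) were higher, 0 were lower and 7 (19.4%) were above vehicle in all 3 lines. The line medians were 0.05, -0.10 and 0.83, and 34 of 36 were above vehicle in C13 against 18 and 13. Without C13 the list's median was 0.00, with 5 higher and 2 lower genes, and without SK-OV-3-TR 15 were higher. MDM2, the ubiquitin ligase that restrains p53, went from 513, 63.6 and 35.1 normalized CPM to 570, 65.8 and 153. CDKN1A, the p21 cell cycle inhibitor, had log2 ratios of 0.10, -0.15 and 1.70 (edgeR adjusted p = 0.703) and TP53INP1, a proapoptotic p53 target, -0.13, -0.29 and 2.35. A few members were above vehicle in every line: FAS, the death receptor, at 0.87, 0.48 and 0.71, and RPS27L, given above. RRM2B, the p53-induced ribonucleotide reductase subunit, went from 269 and 24.9 to 552 and 91.9 in HeyA8-MDR and C13 but only from 38.9 to 40.8 in SK-OV-3-TR. GDF15, a stress cytokine, was higher in HeyA8-MDR (0.83) and C13 (1.74) and at -0.39 in SK-OV-3-TR.

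Heat shock genes, the cytosolic chaperones that refold proteins, split the lines. Of 25 tested, 3 (12%) were higher and 0 lower, with line medians of 0.35, 0.92 and -0.38, and the change was largest in SK-OV-3-TR for 20. HSP90AA1 went from 1013 to 4480 normalized CPM in SK-OV-3-TR, from 1546 to 2170 in HeyA8-MDR and from 3684 to 2306 in C13. HSPA8 had log2 ratios of -0.08, 1.81 and -0.72 and HSPH1 0.58, 1.87 and -0.38. DNAJB1, their co-chaperone, was below vehicle in HeyA8-MDR (-1.39) and C13 (-0.80) and above it in SK-OV-3-TR (1.26). HSPA4L, at 0.56, 0.93 and 0.63, and DNAJB6, at 0.88, 0.89 and 0.21, were above vehicle in all 3. With C13 left out 16 genes of the list were higher, and with SK-OV-3-TR left out 1.

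The 250 bases before HSPA8 (chr11:123062137-123062386, minus strand) are shown for the chaperones that moved in SK-OV-3-TR. Capitals mark GAANNTTC, the core of the heat shock element, which began 230 and 50 bases before the start. Of 21 heat shock genes matched to a promoter 7 (33.3%) held it, beside 5.85% of all promoters and 3.96% of those of the genes tested.
HSPA8: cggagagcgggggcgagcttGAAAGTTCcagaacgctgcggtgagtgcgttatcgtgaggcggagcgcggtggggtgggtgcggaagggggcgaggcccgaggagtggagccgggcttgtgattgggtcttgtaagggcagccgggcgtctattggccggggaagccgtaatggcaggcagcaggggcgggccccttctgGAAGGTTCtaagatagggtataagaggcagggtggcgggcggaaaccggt

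G2 and mitosis genes, which drive chromosome segregation, also divided the lines. Of 48 tested, 12 (25%) were higher and 1 (2.08%) lower. The line medians were 0.71, 0.60 and -0.43, and 42, 47 and 8 of the 48 were above vehicle. CKAP2, a spindle protein, went from 52.0, 49.8 and 111 normalized CPM to 148, 88.2 and 126, and CENPF, a kinetochore protein, had log2 ratios of 1.86, 0.49 and 0.23. CDK1, the mitotic kinase, was at 1.59, 0.82 and -0.33, and ESPL1, the separase, at -0.38, -0.35 and -0.59. The count of higher genes was 0 without HeyA8-MDR, 36 without C13 and 4 under the GC and length correction; the median GC content of the list was 44.2%. In RNA from whole cultures, fewer cells in a phase and less RNA per cell cannot be told apart.

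Cholesterol synthesis and SREBP2 targets, switched on when sterols in the endoplasmic reticulum run low, had 7 of 29 genes (24.1%) higher, 0 lower and 10 (34.5%) above vehicle in all 3 lines. The median fitted change was only 0.16, with line medians of 0.10, -0.02 and 0.41. MSMO1, a sterol demethylase, went from 59.0, 385 and 46.8 normalized CPM to 109, 567 and 121, at ratios of 0.89, 0.56 and 1.37. INSIG1, the sterol-sensing retention factor of SREBP processing, was at 0.46, 1.18 and 1.0. HMGCS1, an early enzyme of the pathway, was at 0.33, 0.79 and 1.02. FASN, fatty acid synthase, was among the 2 genes below vehicle in every line, at -0.31, -0.34 and -0.73 (edgeR adjusted p = 0.655). By line 17, 14 and 22 of the 29 genes were above vehicle. Of 21 promoters matched, 1 (4.76%) held TCACNCCAC, a sterol response element on either strand, also chosen after the values were seen, beside 0.875% of all promoters and 0.891% of those of the genes tested.

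Autophagy genes had 6 of 35 (17.1%) higher and 0 lower, and 15 (42.9%) were above vehicle in all 3 lines. The largest was RB1CC1, the scaffold of the kinase complex that starts autophagosomes, which went from 24.5, 104 and 32.7 normalized CPM to 83.2, 135 and 81.9. It passed an adjusted p of 0.05 under DESeq2 (0.0482) and not under edgeR (0.458). MAP1LC3B, which coats the autophagosome membrane, had log2 ratios of 1.11, 0.55 and 0.45, and ATG12, of its conjugation system, 0.64, 0.48 and 0.64. With HeyA8-MDR left out 3 of the 35 autophagy genes were higher, beside 399 of all 18639 genes in that fit. Lysosome genes had 0 higher and 1 lower of 50, with line medians of 0.03, 0.07 and 0.04.

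Immediate early genes, the first to respond to growth and stress signals, had 6 of 37 (16.2%) higher and 1 (2.7%) lower. FOS went from 4.74, 1.27 and 4.03 normalized CPM to 13.4, 1.94 and 14.6, FOSB had log2 ratios of 1.73, 1.34 and 0.70, and KLF10, a repressor induced by TGF-beta, 1.33, 0.42 and 0.86. FOS was counted 42 and 36 times in SK-OV-3-TR, where its counting interval (0.95 to 2.45) included no change. JUND was lower, at -0.71, -0.35 and -0.37. With SK-OV-3-TR left out 10 immediate early genes were higher. YAP and TGF-beta targets had 6 of 24 (25%) higher and 1 lower, but 2 higher and a median of -0.04 with C13 left out. INHBA, the activin subunit, was at 0.75, 0.18 and 1.75 and PMEPA1, a feedback inhibitor of TGF-beta signalling, at 0.52, 0.14 and 1.27. Both members moved most in C13 and least in SK-OV-3-TR. In SK-OV-3-TR the counting interval included no change for INHBA (17 and 11 counts, 0.49 to 2.62) and for PMEPA1 (0.94 to 1.28).

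Among the resistant lines, HeyA8-MDR stood apart for NF-kB targets and cytokines, the inflammatory genes of that factor. Of 27 tested, 4 (14.8%) were higher and 0 lower, and the line medians were 0.69, -0.19 and -0.12. CXCL8, the chemokine IL-8, went from 26.3 to 182 normalized CPM in HeyA8-MDR, from 31.9 to 38.5 in SK-OV-3-TR and from 37.2 to 26.9 in C13. TNFAIP3, a feedback inhibitor of NF-kB, was above vehicle in all 3 lines at 1.37, 0.52 and 0.34, and IL1A, a proinflammatory cytokine, at 1.20, 0.59 and 0.55. IL1A was counted only 24 and 21 times in SK-OV-3-TR, where its counting interval (0.83 to 2.93) included no change. Without HeyA8-MDR the list had 0 higher and 1 lower gene, and without SK-OV-3-TR 8 higher. Interferon-stimulated genes had 0 higher and 2 lower of 23.

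The nucleolus makes ribosomes, and its genes moved differently in each line. Ribosome biogenesis factors had 2 of 101 (1.98%) higher and 6 (5.94%) lower, with 20 (19.8%) below vehicle in all 3 lines, beside 16.4% of all genes. The line medians were -0.01, 0.11 and -0.36, so that 48, 71 and 9 of the 101 were above vehicle. URB2 went from 19, 16.6 and 59.5 normalized CPM to 8.43, 12.1 and 36.2, and UTP14A, a subunit of the small subunit processome, had log2 ratios of -0.43, -1.09 and -0.45. KRR1, another processome protein, was higher, at 1.26, 0.26 and 0.53. With SK-OV-3-TR left out 13 were lower, with C13 left out 7 were higher, and with HeyA8-MDR left out 3 were lower. GNL3, nucleostemin, stood at 94.2, 104 and 193 with vehicle and 93.5, 137 and 120 with QC: it was level in HeyA8-MDR, above vehicle in SK-OV-3-TR and below it in C13 (fitted -0.10, SE 0.23, edgeR adjusted p = 0.941).

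The machinery of RNA polymerase I, which transcribes ribosomal RNA, had 1 of 22 higher and 3 (13.6%) lower, with 0 lower when HeyA8-MDR was left out and 4 higher when C13 was. The 2 largest subunits moved in HeyA8-MDR: POLR1A went from 97.1 to 36.0 normalized CPM there, from 72.3 to 68.3 in SK-OV-3-TR and from 152 to 125 in C13, and POLR1B had log2 ratios of -1.61, -0.08 and -0.24. Cytoplasmic ribosomal proteins had 0 of 79 higher or lower, and 73, 75 and 0 of them were above vehicle in the lines, with medians of 0.35, 0.30 and -0.42; with C13 left out 37 of the 79 were higher, at a median of 0.31. Host genes of small nucleolar RNAs had 3 of 25 (12%) lower, and 11 (44%) were below vehicle in all 3 lines. With 1 line left out, 1 or 2 of these were lower. SNHG4 had ratios of -1.04, -0.10 and -1.03 and SNHG7 of -0.53, -0.23 and -0.75.

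Nucleotide synthesis genes had 0 of 31 higher and 4 (12.9%) lower, with medians of 0.13, 0.19 and -0.46; 0 were lower without HeyA8-MDR, 6 without SK-OV-3-TR and 2 without C13, where 4 were higher. CAD, which starts pyrimidine synthesis, went from 168, 245 and 236 normalized CPM to 58.5, 231 and 162, and UCK2, a uridine-cytidine kinase, had log2 ratios of -0.96, -0.31 and -0.80. DNA replication genes had 1 of 56 higher and 2 lower, CDT1, the licensing factor, being at -1.03, -0.25 and -0.92, and 8 higher with C13 left out. Homologous recombination genes had 1 higher and 1 lower of 30. Of the genes the study selected for follow-up and not yet described, DNMT3B, a de novo DNA methyltransferase, was at -0.30, -0.74 and -0.99 (fitted -0.70, SE 0.21, edgeR adjusted p = 0.494). G3BP1, the stress granule scaffold, was above vehicle in HeyA8-MDR (0.59) and SK-OV-3-TR (0.26) and below it in C13 (-0.48).

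Glycolysis and hypoxia genes had 6 of 36 (16.7%) higher and 0 lower, with KDM3A, a hypoxia-induced histone demethylase, at 1.13, 0.49 and 0.50 and BNIP3, a mitophagy receptor also on the autophagy list, at 0.62, 1.09 and 0.09; their line medians were 0.37, 0.44 and -0.19. The count of higher genes was 3 without HeyA8-MDR, 1 without SK-OV-3-TR and 19 without C13. NRF2 targets had 2 of 30 higher, endoplasmic reticulum chaperones 1 of 26, the BCL2 family 1 higher (PMAIP1, also on the p53 list) and 1 lower of 15, and metallothioneins and mitochondrially encoded genes 0 of 4 and 0 of 15 in either direction. MT2A, a metal-binding metallothionein, had log2 ratios of -1.09, 1.41 and 0.03, so the lines moved in different directions. With C13 left out, 9 of the 15 mitochondrially encoded genes and 5 of the NRF2 targets were higher.

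**Figure D5:**
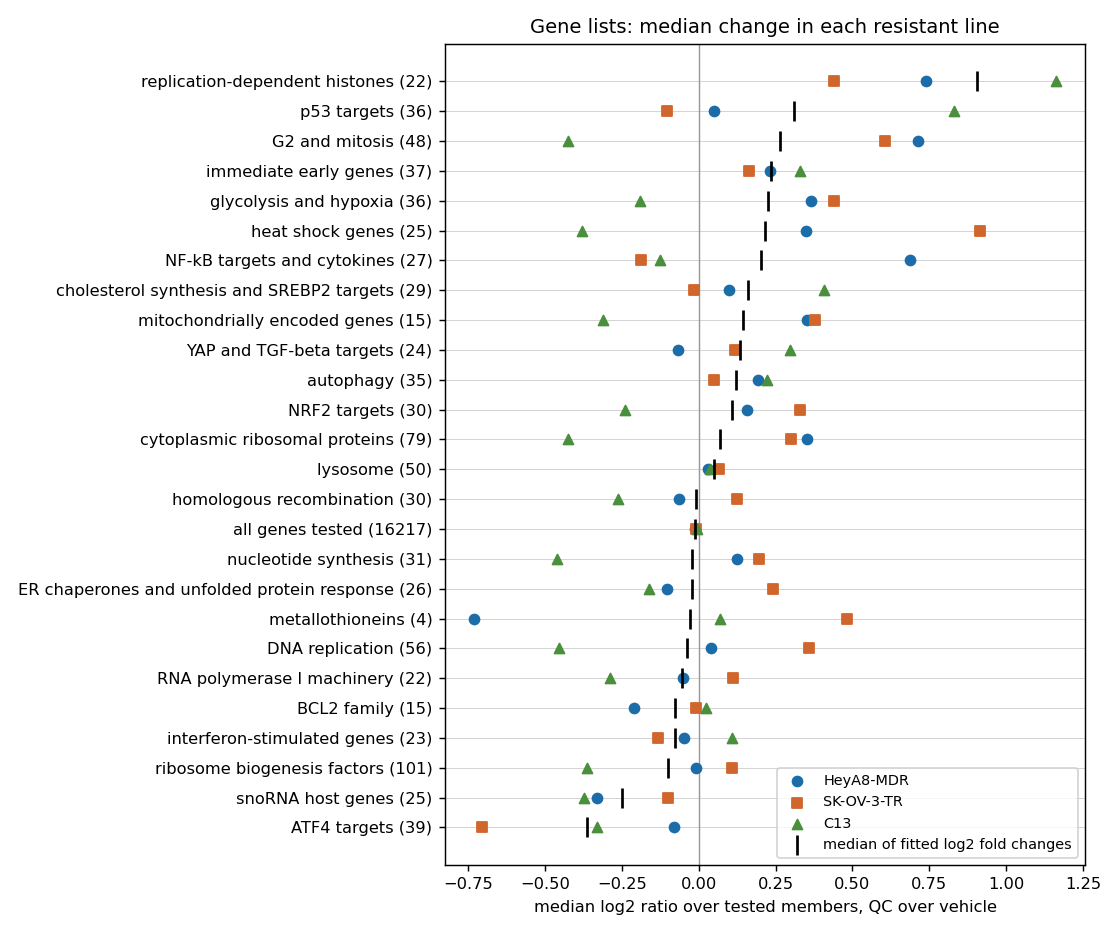
Median log2 ratio of QC over vehicle over the tested members of 25 gene lists and of all genes, in each resistant line (points) and for the fit over the 3 lines (black ticks), with the number tested in parentheses. Histones lie farthest right and ATF4 targets farthest left by the fit; ribosomal proteins, heat shock genes and G2 and mitosis genes have C13 on the other side of 0 from HeyA8-MDR and SK-OV-3-TR.

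The largest changes of each line among genes with a mean of at least 50 counts were seldom shared. In HeyA8-MDR, ADAMTS1, a secreted metalloprotease, went from 714 to 120 normalized CPM, against 225 to 241 in SK-OV-3-TR and 33.7 to 31.6 in C13. NGFR, the low-affinity neurotrophin receptor, was counted 114 and 10 times there and had log2 ratios of 0.56 and 1.0 in SK-OV-3-TR and C13. CRABP2, a retinoic acid carrier, was an exception, at 2.56, 0.90 and 0.39. LGI4, a secreted protein of glial cells, went from 28 to 136 counts in HeyA8-MDR and from 10 to 65 in C13 but was counted 20 and 7 times in SK-OV-3-TR. The pseudogenes RPL26P19 (414 and 30 counts) and RPLP0P9 (120 and 10) were also among the 4 largest decreases, and their reads may belong to other copies.

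In SK-OV-3-TR the largest increases other than HSP90AA1 were those of PSG1, a pregnancy-specific glycoprotein counted 20 and 120 times, of CPA4, a carboxypeptidase, and of UCA1, a long non-coding RNA. UCA1 was above vehicle in all 3 lines, at 1.35, 2.61 and 0.49, with 12 and 29 counts in HeyA8-MDR and 447 and 628 normalized CPM in C13. CPA4 had log2 ratios of 1.35, 2.71 and -0.20. The 4 largest decreases in SK-OV-3-TR were CHAC1, INHBE, SLC1A4 and SESN2, given above.

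In C13 the largest increases started from few reads. PURPL, a p53-induced non-coding RNA, was counted 2 times with vehicle and 98 times with QC, and DAPK1, a proapoptotic kinase, 12 and 213 times. Both were below vehicle in the other lines, DAPK1 at -0.49 in HeyA8-MDR and -0.32 in SK-OV-3-TR. KLHDC7A went from 12 to 186 counts and ADAMTS7, a metalloprotease, from 19 to 227. HKDC1, a hexokinase, was the C13 decrease that was shared, at -0.61, -0.38 and -2.05, while PRDM16, JPH2 and LINC03060 were at -2.02, -1.85 and -1.89 in C13 and at 0.22, 0.20 and 0.05 in SK-OV-3-TR. In HeyA8-MDR HKDC1 was counted 34 and 19 times, and its counting interval (0.34 to 1.15) included no change.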

How the data were processed

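RNA of the 3 resistant lines, each treated with vehicle or QC, was sequenced by the authors from TruSeq libraries of polyA RNA (per the labels). The authors deposited raw read counts per gene for 12 libraries, not normalized. The submitters' processing notes name STAR 2.7.3a, HTSeq 0.6.1p1 and GRCh38.p13, whereas the study's methods name TopHat, hg19 and HTSeq; the strand setting is not given in the sources used here. Of 60669 gene IDs, 58663 were paired with an entry of a reference table of gene names, holding 99.87% of the counts. Of 940 list members, 931 were paired with a gene ID.

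Counts of the 6 resistant libraries were filtered with edgeR 4.0.16's filterByExpr (a minimum count of 10 and a total of 15), which left 16217 genes, scaled by TMM and fitted by quasi-likelihood with a term for the cell line (common dispersion 0.0523, 2 residual degrees of freedom). Tests were two-sided and adjusted by Benjamini-Hochberg. Ratios per line are of TMM-normalized CPM with a prior count of 2. Pairs come from the line the libraries share, and the deviations of paired libraries from their group means correlated at 0.916, 0.922 and 0.904 across genes. An exact sign-flip test over 3 lines cannot go below a p of 0.25 and was not used. The 25 gene lists were written from general knowledge, and members and lists were chosen with earlier results of these data known. Genes were named as the 12 higher and 12 lower genes with a symbol and the largest smallest ratio at 2-fold in every line (of the 7 lower genes 4 had a symbol), the 2 smallest p of each list, the 4 largest changes each way per line with a mean of at least 50 counts, and those the study selected; some genes of these and of the well counted set are not reported here. Other list members, and the well counted genes, were named after their values were seen. Alternatives were DESeq2 1.42.0, other scalings, filters, prior counts and fold limits, thinning, other library sets, no cell line term and leaving out each line; a GC and length correction (loess, span 0.5, values for 16127 genes) and a minimum of 100 counts were added after the data were seen. The fits were tested on simulated counts. Plots used matplotlib 3.10.9.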

Additional observations from a re-analysis of the deposited data

Results flagged for a closer look

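Of the 101 genes named by the rules, 2 had log2 ratios in all 3 resistant lines that were opposite to those in all 3 sensitive lines. SNHG7, a host gene of small nucleolar RNAs, was at -0.53, -0.23 and -0.75 in the resistant lines (HeyA8-MDR, then SK-OV-3-TR, then C13) and at 0.40, 0.19 and 0.05 in HeyA8, SK-OV-3 and OV2008. The difference in a fit of 12 libraries was -0.72 (edgeR, unadjusted p = 0.0153, adjusted p over all genes 0.9998). RPL26P19, a ribosomal protein pseudogene, had a difference of -5.07 (unadjusted p = 0.00164, adjusted p 0.9998). It was counted 414 and 30 times in HeyA8-MDR, 2 and 0 times in SK-OV-3-TR and 18 and 7 times in C13, but 23 and 523 times in HeyA8, with vehicle and QC. In SK-OV-3 it was counted 3 and 4 times and in OV2008 9 and 12 times. Its log2 ratios of 0.34 and 0.06 there rest on a few reads. Over all 16217 genes, 155 (0.956%) were opposite in this way, while 1565 (9.65%) moved in the same direction in all 6 lines.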

How the results depend on the processing

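Each line had 1 pair of libraries, so no setting below gives an error within a line. The 1251 genes at an unadjusted p under 0.05 became 8 without the replicate block (the cell line term), and the 0 at an adjusted p under 0.05 became 11 with DESeq2 and 38 with no filter on low counts. Leaving out each line in turn gave 637 to 1834 and 0 to 100 genes: 637 and 13 when HeyA8-MDR was omitted, 1361 and 100 when SK-OV-3-TR was, 1834 and 0 when C13 was. The GC and length correction, added later, gave 1002 and 0.

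The 16 higher and 7 lower genes at 2-fold in all 3 lines became 49 and 50 with no filter, 1 and 1 where every library had 10 counts or more, 1 and 0 where it had 100, 26 and 19 with a prior count of 0.5, 10 and 1 with a prior count of 5, 112 and 119 at 1.5-fold and 2 and 0 at 3-fold. The lower count was 13 with library size only and 11 after thinning to the smallest library. With 1 line left out, the 2 others gave 69 to 194 higher and 50 to 161 lower genes. Genes at 2-fold in each line, in the order HeyA8-MDR, then SK-OV-3-TR, then C13, numbered 8251, 5710 and 4589 with no filter, 1038, 361 and 604 with at least 10 counts, 423, 90 and 193 with at least 100, 5527, 3486 and 4373 at 1.5-fold and 683, 319 and 519 at 3-fold; with no filter SK-OV-3-TR passed C13, and in the other settings given HeyA8-MDR led and C13 followed.

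Of the named genes' fitted changes under these settings 1041 kept direction and side of the threshold, 166 lost it, 45 gained it and 23 reversed. Without the replicate block RPLP0P9 was at -0.31, NGFR at 0.82, PURPL at -0.056 and DAPK1 at -0.29, and with the GC and length correction NGFR was at 0.042. Leaving out a line turned 18 of these signs, and the range of log2 fold changes over the 3 omissions is given. With HeyA8-MDR out the sign turned for MT1X (-0.80 to 0.058), NGFR (-1.01 to 0.80), ADAMTS1 (-1.34 to 0.003), CXCL8 (-0.10 to 1.53) and G3BP1 (-0.11 to 0.43). With SK-OV-3-TR out the sign turned for RPLP0P9 (-0.51 to 2.73), CHAC1 (-1.86 to 0.009), SLC1A4 (-1.17 to 0.031), SESN2 (-1.07 to 0.33) and HSP90AA1 (-0.090 to 1.32). With C13 out the sign turned for PRDM16 (-2.10 to 0.23), JPH2 (-1.05 to 0.43), PURPL (-0.43 to 1.82), DAPK1 (-0.40 to 1.42), KLHDC7A (-0.34 to 2.02), ADAMTS7 (-0.024 to 1.71) and GNL3 (-0.35 to 0.20). RPLP0P9 turned with C13 out as well. The cause of the turns was not tested for any of these settings.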
